A study of Mus musculus with 2 samples.

Results

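Thick ascending limb cells in which claudin-16 outnumbered claudin-10 were drawn by a gate on single barcodes of the kidney cortex. A barcode was kept if it held 1000 or more unique molecular identifiers (UMIs), 200 or more genes and up to 50% of its UMIs from mitochondrially encoded genes. It was called Cldn16-type if Slc12a1, the apical sodium-potassium-chloride cotransporter of this segment, stood at 8 or more per 10000 UMIs and Slc12a3, the cotransporter of the distal convoluted tubule, stood below 5 per 10000. It also needed more raw Cldn16 than Cldn10 UMIs and no UMI of the endothelial gene Pecam1 or the leukocyte gene Ptprc. Of 15488 kept barcodes, 285 met the rule, namely 187 of 5076 in the library labelled PT I-PpoI and 98 of 10412 in the wild-type library. Barcodes past the same gate with more Cldn10 than Cldn16 UMIs, called Cldn10-type, numbered 1037 and 472. Another 145 and 177 barcodes had equal UMIs of both claudins.

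The libraries were made from kidney cortex of mice aged 16 weeks, 1 per group. One came from a PT I-PpoI kidney, in which, per the series title, a DNA-cutting homing endonuclease acts in the proximal tubule (PT), and the other from a wild-type kidney. The labels give no driver of the transgene, no strain and no number of animals behind a library. A single library stood for each genotype, so PT I-PpoI and wild type are set side by side without a test, and genotype cannot be told apart from animal or library.

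The thick ascending limb reabsorbs salt without water, and its transport leaves the lumen electrically positive, which drives cations between the cells. Claudins line that paracellular path: claudin-16 and claudin-19 together form a pore used by magnesium and calcium, while claudin-10 forms a path that favours sodium, and single cells tend to carry one or the other. The calcium-sensing receptor and the parathyroid hormone receptor act on divalent cation transport in this segment.

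Depth differed between the libraries. The 187 PT I-PpoI cells of Cldn16-type held a median of 15073 UMIs (1037 to 54545) and 3311 genes. The 98 wild-type cells held 6436.5 UMIs (1171 to 20883) and 1938.5 genes. Their median mitochondrial share was 31.2% and 32.6%. UMIs summed over the cells came to 2927264 and 728856, and levels are given below as counts per 1000000 UMIs of these sums (CPM). Free RNA, estimated from PT markers, made up 2.13% and 14.6% of Cldn16-type UMIs, and 9.07% and 32.6% of Cldn10-type UMIs. The estimate treats PT marker UMIs as free RNA, so it cannot set apart RNA from barcodes that also held a PT cell. The libraries shared 19 kept barcodes, of which 0 were Cldn16-type. Values come as a pair, PT I-PpoI then wild type, unless stated, and every ratio is on the log2 scale with its 95% interval in brackets. Intervals express counting error and treat UMIs as independent.

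Cldn16-type cells formed 3.68% (3.18 to 4.24) of kept barcodes in the PT I-PpoI library, against 0.941% (0.765 to 1.15) in the other. Among gated barcodes with a majority claudin the shares were 15.3% (13.3 to 17.4) and 17.2% (14.2 to 20.5), and these intervals overlap. With the gate applied to barcodes thinned to 2000 UMIs, the shares of majority-claudin barcodes were 11.8% and 12.01%. The first pair of shares depends on how many other cells each library held. The second pair compares the claudin choice within the limb.

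The choice of claudin rested on few UMIs. Cldn16 led by 1 UMI in 67 and 51 cells, by 2 in 39 and 23, and by 3 or more in 81 and 24. A Cldn10 UMI was present in 52 of 187 and 12 of 98 cells. Just outside the rule, 104 and 158 barcodes had no UMI of either claudin, with medians of 3943 and 1694 UMIs, shallower than the members. For Slc12a1, the 4 and 5 cells nearest the limit lay at 8.88 to 12.3 and 8.29 to 14.7 per 10000. The barcodes that failed by Slc12a1 alone lay at 0 to 1.56 (15 barcodes) and 0 to 7.29 (16 barcodes).

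Known products of the limb filled these cells. Umod, which encodes the urinary glycoprotein uromodulin, was at a median of 202 per 10000 (1.00 to 434) in PT I-PpoI, against 159 (18.8 to 508) in the wild-type cells. Egf, the precursor of epidermal growth factor, was at a median of 121 (0 to 319) and 84.5 (2.57 to 274). The ranges of both genes overlapped almost wholly between libraries. Sfrp1, a secreted antagonist of Wnt ligands, was uneven: its median was 3.31 and 1.10, its lower quartile was 0 in both libraries, and its highest cells reached 51.2 and 43.6. After thinning to 2000 UMIs, Umod was read in 98.9% and 100% of cells, against 38.5% and 15.6% of barcodes with 2 or more Ptprc UMIs, which should lack it and had median depths of 5718 and 3191 UMIs. The thinned share with Sfrp1 was 50.5% (43.1 to 58.0), and 41.4% (30.9 to 52.4) in wild type, against 2.72% and 1.02% of those barcodes. The markers of the segment that the rule did not use, Umod, Egf and Sfrp1, were thus high or frequent in both libraries, as the label has it. Among connecting tubule markers Klk1, which encodes kallikrein, was at 4029.7 and 3840.3 CPM, S100g at 136 and 86.4 CPM and Calb1 at 30.4 and 1.37 CPM, while Trpv5 and Slc8a1 had 0 UMIs.

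**Figure D1:**
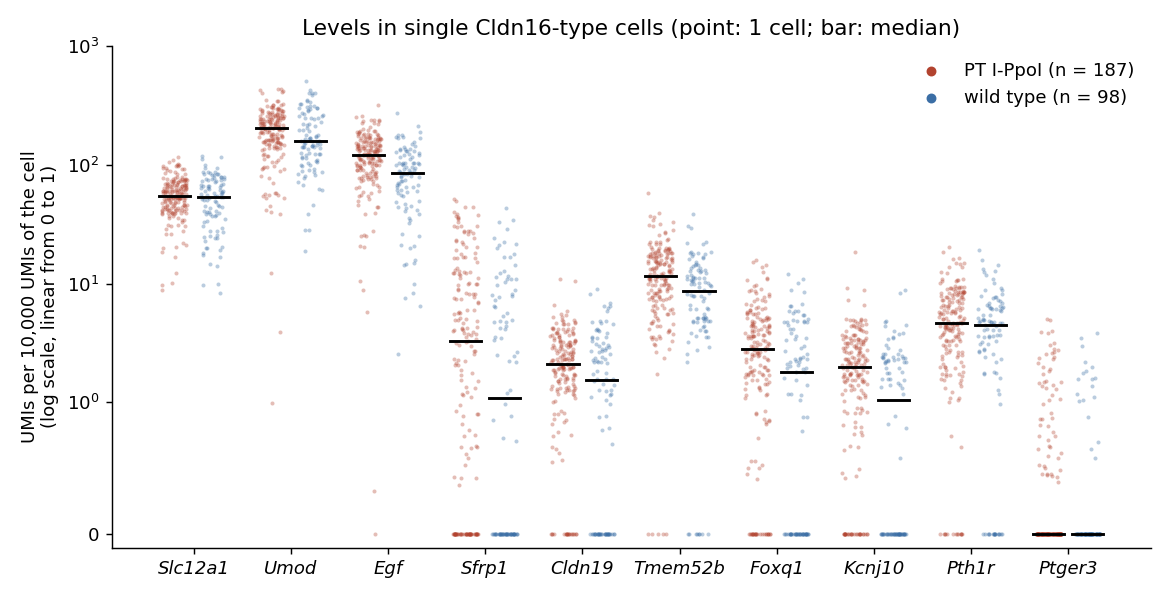
Level of 10 genes in each Cldn16-type cell, in UMIs per 10,000 UMIs of the cell on a log axis that is linear from 0 to 1, with 187 PT I-PpoI cells and 98 wild-type cells as points and medians as bars. Umod and Egf are high in nearly every cell, Sfrp1 runs from 0 to 51.2, and Ptger3 has a median of 0 in both libraries.

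Cldn16-type cells were then set against Cldn10-type cells of the same library, which gives the same contrast once per library. A gene was called when it reached 50 CPM in the higher class and 30 UMIs over both, and differed by 2-fold or more. In PT I-PpoI 26 of 2547 genes (1.02%) were higher in Cldn16-type cells and 29 (1.14%) lower, and in wild type 27 of 2570 (1.05%) and 73 (2.84%). Of 2353 genes past this level in both libraries, 17 (0.722%) were higher and 18 (0.765%) lower in Cldn16-type cells in both. These counts include Cldn16 and Cldn10, which the rule used. Called in either direction were 45 genes in PT I-PpoI, against 56 in wild type, and 35 were called in both with the same direction, or 77.8% and 62.5% of each list. No gene was called in opposite directions. Both libraries entered the same claudin rule, so this overlap is a description, and median ratios over all genes were -0.00 and -0.02.

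The transcription factor Foxq1 led the higher genes. It stood at 372 CPM in Cldn16-type and 57.5 in Cldn10-type cells of PT I-PpoI, and at 284 and 42.7 CPM in wild type, ratios of 2.69 (2.56 to 2.82) and 2.73 (2.41 to 3.06). The membrane protein gene Tmem52b stood at 1296 against 226 CPM and at 1106 against 127 CPM, ratios of 2.52 and 3.12. Both stood apart from Cldn10-type cells in each library. On GRCm38 Foxq1 lies at chr13:31556134-31560976 and Tmem52b at chr6:129512555-129519227, both on the plus strand. After thinning, Tmem52b was read in 88.5% (82.9 to 92.7) and 83.9% (74.5 to 90.9) of Cldn16-type cells but in 21.4% (18.9 to 24.1) and 14.4% (10.98 to 18.3) of Cldn10-type cells.

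Genes of potassium handling, kinase control and hormone response were among the other higher genes. Kcnj10, a basolateral potassium channel, was at 224 against 79.6 CPM and at 159 against 46.1 CPM. Wnk1, a kinase upstream of the cotransporter, was at 962 against 295 CPM and at 956 against 309 CPM. The 3′ counts do not separate its isoforms. Wnk1 is also a fixed marker of the distal convoluted tubule here, and of 5 such markers only 1, Wnk1, passed the level filter in both libraries. Pth1r, the parathyroid hormone receptor, was at 555 against 184 CPM and at 520 against 227 CPM. Itpr2, an intracellular calcium release channel, had ratios of 1.66 and 1.73, and the zinc finger gene Zfp503 had ratios of 1.62 and 1.80. Col5a2, a collagen V chain, had ratios of 1.87 and 1.56. Enox1, Susd4, Fam107a and Ly6c1 completed the 12 named genes, with ratios of 1.21 to 1.69 over both libraries. In no gene of these 12 did a single PT I-PpoI cell hold over 4.33% of its Cldn16-type UMIs, and in wild type the highest such share was 11.7%, for Col5a2.

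Lower genes included receptors and transcription factors of the other cell type. Ptger3, the EP3 receptor for prostaglandin E2, was at 43.0 CPM in Cldn16-type against 435 in Cldn10-type cells of PT I-PpoI, and at 43.9 against 360 in wild type. Its ratios were -3.33 (-3.60 to -3.08) and -3.01 (-3.59 to -2.53), and its gene lies at chr3:157566892-157645888. After thinning it was read in 7.69% and 6.90% of Cldn16-type cells and in 58.7% and 45.7% of Cldn10-type cells. Irx1, a homeobox factor of the nephron, was at 32.1 against 164 CPM and at 17.8 against 109 CPM. Enpp2, which encodes the lysophospholipase autotaxin, was at 47.5 against 220 CPM and at 74.1 against 234 CPM. Pla2g7, the platelet-activating factor hydrolase, had ratios of -3.08 and -3.50, and the adhesion gene Esam had ratios of -3.24 and -2.90. Eprn, Ranbp3l, Tnfaip2, Anxa2, Egfl6, Cox7a1 and Nccrp1 had ratios between -3.58 and -1.47. There were 8 settings that neither entered the choice of these genes nor leave a ratio as it is. Over them 384 of 384 values of the 24 named genes kept their sign, and 6 genes fell under 2-fold in at least 1. These settings reuse the same libraries, and some change little: leaving out doublets removed 0 and 3 Cldn16-type cells. The kept signs are a description and not independent support.

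**Figure D2:**
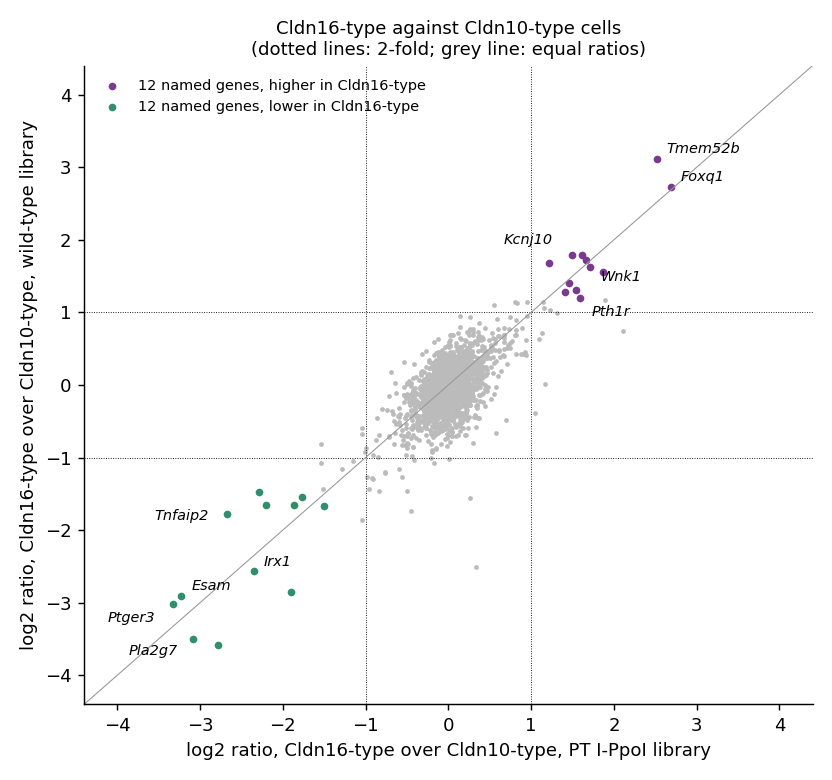
Log2 ratio of Cldn16-type over Cldn10-type cells for each gene past the level filter in both libraries, PT I-PpoI on the x axis and wild type on the y axis, without the genes of the rule. The 12 named higher genes lie in the upper right and the 12 named lower genes in the lower left, beyond 2-fold on both axes.

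Among the 24 listed genes of salt transport, 19 passed the level filter in both libraries, Slc12a1 included. Of these 6 had a higher and 9 a lower level in Cldn16-type cells of both libraries, and the median ratios were -0.07 and -0.04. The matching shares over all genes were not counted, so the list counts between the cell types are descriptions. Besides Kcnj10 and Wnk1, the 2-fold call took Fxyd2, a regulator of the sodium pump, which was lower at 2400 against 5352 CPM and 2619 against 5391 CPM. Kcnj16, the partner channel of Kcnj10, had ratios of 0.66 and 0.42. Kcnj1, the apical potassium channel, had -0.07 and 0.00.

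The pore partner of claudin-16 was at a like level in both cell types. Cldn19 was at 234 CPM in Cldn16-type and 223 in Cldn10-type cells of PT I-PpoI, and at 207 and 194 in wild type. Of 24 paracellular and divalent cation genes, 8 passed the filter in both libraries, and 6 had a higher and 2 a lower level in both. Cldn16 is among the 6 and Cldn10 among the 2, as the rule sets. Tmem207, a small membrane protein gene, was at 194 against 116 CPM and at 167 against 87.5 CPM, and Egf had ratios of 0.52 and 0.72. Umod had ratios of 0.01 and 0.19. Cldn14, an inhibitory partner of claudin-16, was under the level filter, with 15 UMIs in Cldn16-type cells of each library, or 5.12 and 20.6 CPM, against 0.689 and 1.01 CPM in Cldn10-type cells. The magnesium channel gene Trpm6 was near 0, at 1.71 and 1.37 CPM.

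Receptor genes lay on both sides of the contrast. Of 24 receptor and signalling genes, 11 passed in both libraries, of which 7 had a higher and 4 a lower level in both. The share over all genes was not counted, so these counts are not read as a result. The list medians were 0.02 and 0.18, and 1 gene each way was 2-fold in both libraries. Casr, the calcium-sensing receptor, was at 145 against 82.9 CPM and at 139 against 86.1 CPM. Its thinned share did not keep that order, being 22.5% against 13.8% of cells in PT I-PpoI but 11.5% against 16.5% in wild type. Vdr, the vitamin D receptor, had ratios of 0.67 and 0.68. Gcgr, the glucagon receptor, had 0.01 and 0.18. Avpr2, the vasopressin receptor, was under the level filter, with 70 and 16 UMIs in Cldn16-type cells.

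Among the listed secreted products more genes were higher than lower, and among nephron factors as many, without a share of all genes beside them. Wfdc2, a secreted protease inhibitor, was at 2192 against 1139 CPM and at 2048 against 1058 CPM, just under 2-fold, and Sfrp1 had ratios of 0.56 and 0.48. Of 14 secreted products past the filter in both libraries 9 had a higher and 3 a lower level. Of 11 nephron transcription factors past the filter 5 had a higher and 5 a lower level. Irx2 joined Irx1, at 42.0 against 120 CPM and 41.2 against 112 CPM. Irx3 went the other way, at 49.5 against 13.8 CPM in PT I-PpoI, just under the level, and at 70.0 against 21.2 CPM in wild type. Hoxd8 had ratios of 0.52 and 0.52 and Tfap2b had 0.23 and 0.02.

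Within Cldn16-type cells some of these levels differed with the margin of Cldn16 over Cldn10. Tmem52b stood at 908 CPM at a margin of 1 UMI, 1279 at 2 and 1490 at 3 or more in PT I-PpoI, and at 967, 1034 and 1305 CPM in wild type. Foxq1 stood at 257, 389 and 421 CPM in PT I-PpoI, against 269, 258 and 317 CPM in wild type, which is no steady order. Ptger3 went down with the margin in PT I-PpoI, at 71.0, 48.8 and 27.5 CPM, but not in wild type, at 34.5, 46.0 and 52.8 CPM. Sfrp1 stood at 506, 660 and 1269 CPM and at 542, 253 and 1373 CPM. Deeper cells reach larger margins, with medians of 10142, 13227 and 19785 UMIs in PT I-PpoI, against 4561, 6405 and 11395 in wild type, and the part of depth in these values was not tested. Even cells with a margin of 1 UMI were far from Cldn10-type cells, where Tmem52b was at 226 and 127 CPM.

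Barcodes with no UMI of either claudin lay nearer to Cldn16-type cells for some genes and not for others. Their Tmem52b stood at 808 and 669 CPM and their Ptger3 at 69.0 and 49.4 CPM. Cldn10-type cells had Ptger3 at 435 and 360 CPM. In barcodes without either claudin Sfrp1, at 409 and 471 CPM, was nearer to Cldn10-type cells, as was Kcnj10 in PT I-PpoI, at 127 CPM. Cldn16-type cells that also held a Cldn10 UMI had Tmem52b at 1008 and 925 CPM, lower than the 1434 and 1146 CPM of cells without one, and Ptger3 at 77.0 against 26.8 CPM and 91.7 against 33.4 CPM in wild type.

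Within single cells the same genes sorted most members. Foxq1 and Tmem52b UMIs together exceeded Ptger3 and Irx1 UMIs in 179 of 187 Cldn16-type cells (95.7%, 91.7 to 98.1) and in 91 of 98 (92.9%, 85.8 to 97.1). This was so in 194 of 1037 and 58 of 472 Cldn10-type cells, and in 103 of 145 and 83 of 177 barcodes with equal claudins. The reverse order was found in 2 and 0 Cldn16-type cells, the rest being equal. These 4 genes were chosen from this same contrast, so the shares describe the cells and test nothing.

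**Figure D3:**
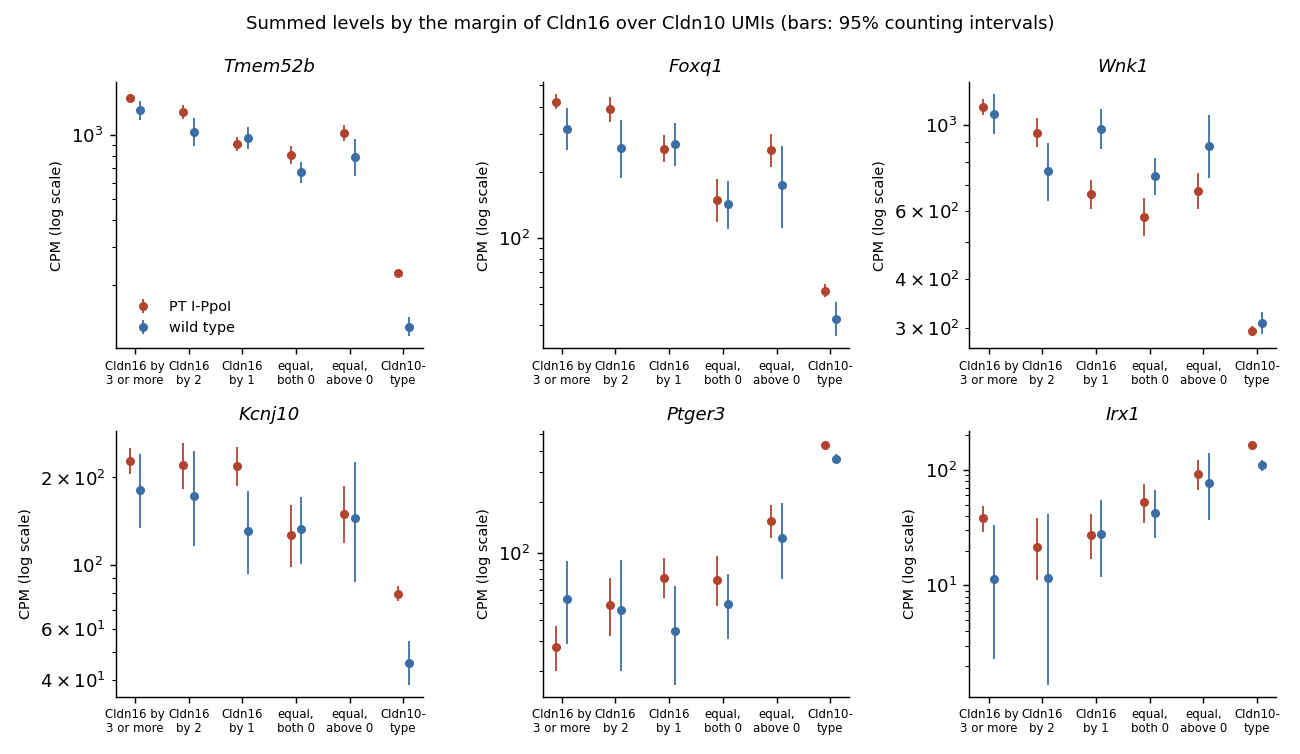
Summed level of 6 genes in CPM (log axes) for Cldn16-type cells by their margin of Cldn16 over Cldn10 UMIs, for barcodes with equal claudins and for Cldn10-type cells, with 95% counting intervals as bars. Tmem52b, Foxq1, Wnk1 and Kcnj10 are lowest in Cldn10-type cells and Ptger3 and Irx1 highest, and barcodes without claudin UMIs lie nearer to Cldn16-type cells for Tmem52b and Ptger3.

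Between the libraries, the segment genes of Cldn16-type cells stayed close. Umod was at 19538 CPM in PT I-PpoI, against 20442 in wild type, a ratio of -0.07. Egf was at 12291 and 9751 CPM (0.33, 0.30 to 0.37), Sfrp1 at 952 and 775 CPM (0.30) and Cldn19 at 234 and 207 CPM (0.17, -0.08 to 0.44). Of 2550 genes past the level filter, 88.9% lay within 0.5 of 0 and the median was 0.03. In PT I-PpoI 27 genes (1.06%) were 2-fold or more higher and 26 (1.02%) were 2-fold or more lower. The 18 salt transport genes past the filter included no 2-fold change and had a median of 0.08, and the 13 secreted products had a median of 0.10. Among the genes of the type contrast, Kcnj10 was at 224 and 159 CPM and Foxq1 at 372 and 284 CPM, while Wnk1, Pth1r and Casr had ratios of 0.01, 0.09 and 0.06.

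The inducible heat shock chaperones Hspa1a and Hspa1b were higher in PT I-PpoI. Hspa1a was at 293 CPM from 139 cells and 61.7 CPM from 27 cells, a ratio of 2.23 (1.81 to 2.71). Hspa1b was at 221 and 41.2 CPM, a ratio of 2.40 (1.90 to 3.00). By cell, Hspa1a had a median of 1.50 per 10000 (0 to 27.4) in PT I-PpoI, against 0 (0 to 8.37) in wild type, so the cells of the libraries overlapped. The top cell held 10.6% of its UMIs in PT I-PpoI, against 17.8% in wild type. Over 13 other settings its ratio ran from 1.64 to 2.90, and that of Hspa1b from 1.94 to 2.95. After thinning, Hspa1a was read in 28.0% (21.6 to 35.1) and 5.75% (1.89 to 12.9) of Cldn16-type cells. In Ptprc-positive barcodes it was read in 69.6% and 28.8%. Whether that was free RNA or their own was not tested, so those barcodes give no background for Hspa1a. The shares of Cldn16-type cells are not read as a difference by themselves. In Cldn10-type cells the ratios were 1.92 and 1.62, and whether they differ from those of Cldn16-type cells was not tested.

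The 2 genes are near copies, and 3′ reads may be split between them. Their 250 bases before the start site, from RefSeq on GRCm38.p6, are shown because the pair moved together, with the heat shock element GAANNTTC in capitals; the motif reads the same on both strands. Hspa1a lies at chr17:34972157-34972406 and Hspa1b at chr17:34959239-34959488, both on the minus strand, and the windows differ at 3 bases.
Hspa1a: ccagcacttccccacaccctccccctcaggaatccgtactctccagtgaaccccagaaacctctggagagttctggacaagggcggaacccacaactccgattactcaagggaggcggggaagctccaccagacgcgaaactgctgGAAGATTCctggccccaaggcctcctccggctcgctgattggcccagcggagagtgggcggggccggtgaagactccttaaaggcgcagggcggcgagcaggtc
Hspa1b: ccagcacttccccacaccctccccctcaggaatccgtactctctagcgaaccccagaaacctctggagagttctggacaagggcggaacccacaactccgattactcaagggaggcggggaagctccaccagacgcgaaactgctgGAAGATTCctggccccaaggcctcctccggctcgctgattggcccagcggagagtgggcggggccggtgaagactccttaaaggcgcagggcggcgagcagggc
The motif begins 104 bases before the start site in both. It was found in 6.69% of 32851 such windows. The 11 heat shock genes with a window had 17 windows between them, and 6 of these genes had the motif in a window. A share of windows and a count of genes differ in unit, so enrichment was not tested. The near copies Hspa1a and Hspa1b are both among the 6, so their matches are not separate. Hspb1 was among the 6, as were Dnaja1, Hspd1 and Hspe1, which were not called. A match describes the letters and not a bound site.

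The heat shock list as a whole was mixed. Of 11 heat shock genes past the filter 4 were 2-fold higher, and the median of the list was 0.15 beside 0.03 for all genes. Hspb1, a small heat shock protein, was at 56.7 and 15.1 CPM, but 1 cell held 36.1% of its PT I-PpoI UMIs, and its ratio of 1.85 ran from -0.03, without cells holding an Slc12a3, Lrp2 or Slc34a1 UMI, to 5.94, after free RNA subtraction. It kept its sign in 12 of 13 settings and was 2.53 without mixed cells. Only 8 of these settings neither entered the choice of named genes nor leave a ratio as it is. Cryab, alpha-crystallin B, was at 89.5 and 32.9 CPM, with 37.0% from 1 cell. The constitutive chaperone Hspa8 was at 560 and 605 CPM, Hsp90aa1 at 482 and 449 CPM, and the mitochondrial pair Hspd1 and Hspe1 had ratios of -0.08 and -0.20.

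Other genes were higher with no cell holding most of their UMIs. Gsr, glutathione reductase, was at 140 and 61.7 CPM (1.16, 0.73 to 1.66), and its ratio in Cldn10-type cells was 1.20. Klf6, an early response factor, was at 82.7 and 28.8 CPM (1.49, 0.88 to 2.24), with 28.5% of its PT I-PpoI UMIs from 1 cell. Muc1, a transmembrane mucin, was at 54.0 and 19.2 CPM, the adhesion gene L1cam at 58.8 and 20.6 CPM, and the glutathione transferase gene Gstm2 at 129 and 43.9 CPM. Col4a1, a basement membrane collagen, was at 59.8 and 20.6 CPM, with 45.1% of its PT I-PpoI UMIs from 1 cell. Its ratio was -0.48 in Cldn10-type cells and -0.09 in Cldn16-type cells under a thinned gate. In Cldn10-type cells Klf6, Muc1, L1cam and Gstm2 had ratios of 0.45, 0.39, 0.42 and 0.75. Klf6, Muc1, L1cam, Gstm2 and Col4a1 each fell under 2-fold in at least 1 of the other settings.

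The highest ratios belonged to collecting duct genes, of which single cells held large shares. Aqp2, the water channel of principal cells, was at 219 and 8.23 CPM, and 1 cell held 72.2% of its PT I-PpoI UMIs. The top cell was also large for Fxyd4 at 140 and 5.49 CPM (71.0%), the intercalated cell pump subunit Atp6v1g3 at 64.6 and 1.37 CPM (67.7%) and Hsd11b2 at 81.6 and 8.23 CPM (39.3%). These 4 are fixed markers of other classes. Principal cell markers summed to 497 and 26.1 CPM over 6 genes, with 0 and 1 of them at 0. An alternative chosen after seeing the data left out 4 of 187 and 13 of 98 cells as mixed. They held over 100 per 10000 of PT markers or over 10 per 10000 of the markers of another class used. Those were principal, intercalated, mural and fibroblast, endothelial, myeloid, lymphoid, and podocyte and parietal cells. Markers of distal convoluted tubule, connecting tubule, thin limb and erythroid cells were not used, so mixing with those was not filtered. Without these mixed cells Aqp2 stood at 32.6 and 6.21 CPM (2.23) and Fxyd4 at 26.5 and 6.21 CPM. Both are among the markers that set this filter, so their fall was in part fixed by it. Aqp2 was read in 69, Fxyd4 in 58 and Hsd11b2 in 47 of the 187 PT I-PpoI cells at full depth. After thinning, Aqp2 was read in 9.89% of these cells and in 9.73% of Cldn10-type cells. In Ptprc-positive barcodes of that library the thinned share was 17.2%, so the share of Aqp2 is read as background.

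Of the 26 lower genes 7 were fixed PT markers, and 9 were markers of some other class, those 7 included. Kap, the androgen-regulated kidney protein of the PT, was at 8.88 CPM in PT I-PpoI, against 1808 in wild type. By cell its median was 0 (0 to 8.88) and 5.62 per 10000 (0 to 578). Slc34a1, the PT phosphate cotransporter, was at 3.07 and 169 CPM, Miox at 1.37 and 132 CPM and Gatm at 0.683 and 68.6 CPM. Cyp4b1 had 0 UMIs in PT I-PpoI against 68 in wild type, which is at least 91.0-fold lower with a floor of 3 counts per library. Akr1c21, Spink1, Keg1 and Acsm2 had ratios of -7.68 to -4.54. The 14 PT markers summed to 174 and 3136 CPM in Cldn16-type cells, and 2 and 0 of them were at 0. After thinning, Kap was read in 65.5% (54.6 to 75.4) of wild-type Cldn16-type cells and in 85.4% of Ptprc-positive barcodes, so that share is read as background. Few cells raised the wild-type sum of Kap, since 1 cell held 36.8% of its UMIs. Without the mixed cells Kap stood at 9.32 and 558 CPM, but Kap is among the PT markers that set that filter. At full depth Kap was read in 93 of the 98 wild-type Cldn16-type cells. Of the 26 lower genes 7 stayed 2-fold lower after free RNA was subtracted, and of the 27 higher genes 23 stayed 2-fold higher. Without the mixed cells 12 lower and 17 higher genes stayed so. Some of the called genes are markers that set that filter, so for them this is no independent check.

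Contractile genes came mainly from 1 wild-type cell each. Tpm2 had 0 and 54 UMIs, of which 94.4% were in 1 cell, at least 72.3-fold lower with the same floor. Rgs5 was at 1.71 and 53.5 CPM with 64.1% in 1 cell. Tagln and Acta2 were at 31.1 and 94.7 CPM and at 9.22 and 133 CPM, with 97.1% and 95.9% of wild-type UMIs in 1 cell. Without the mixed cells they stood at 32.6 and 1.55 CPM and at 9.32 and 0 CPM, so the direction turned. Acta2 is among the markers that set this filter, so its fall in wild type was in part fixed by it. Tagln is not among those markers. In PT I-PpoI too 1 cell held 92.3% of Tagln and 59.3% of Acta2 UMIs, so neither direction rests on more than a few cells.

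**Figure D4:**
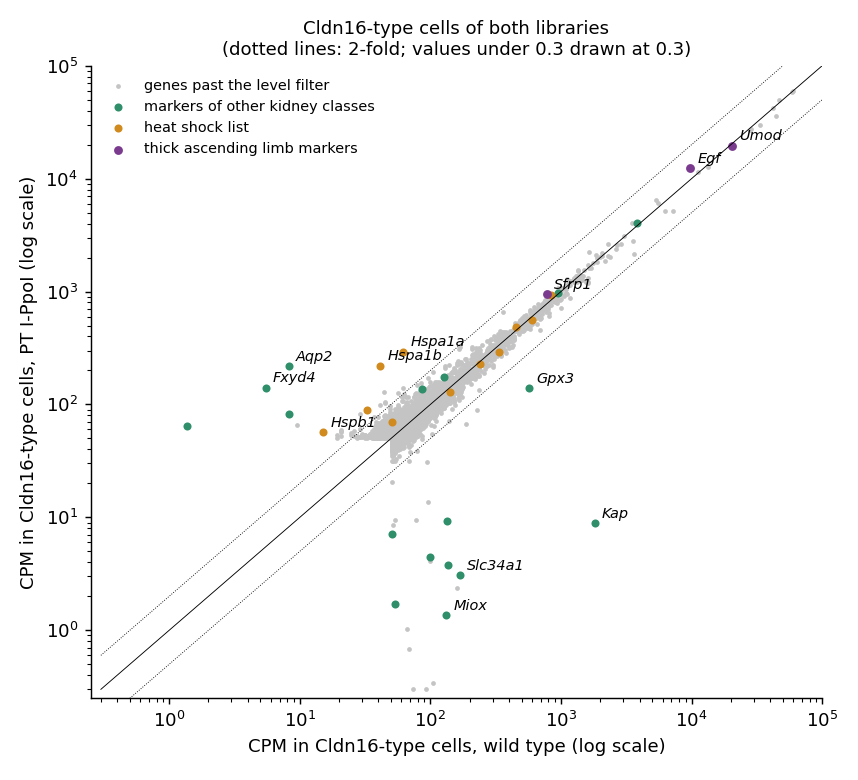
Summed level of each gene past the filter in Cldn16-type cells, wild type on the x axis and PT I-PpoI on the y axis, in CPM on log axes, without the genes of the rule. Umod, Egf and Sfrp1 lie near the line of equality, Hspa1a and Hspa1b above the 2-fold line, and 4 of the 27 higher and 9 of the 26 lower genes are fixed markers of other kidney classes.

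Lists of stress and metabolism genes were read against the median of 0.03 for all genes past the filter, of which 45.6% were lower. Among these lists immediate early genes had the highest median, 0.63 over 7 genes past the filter, of which 5 had a higher and 2 a lower level and 1 was 2-fold higher. Jun, a subunit of the AP-1 factor, was at 193 and 104 CPM (0.88, 0.54 to 1.25), Jund at 325 and 210 CPM, and Ier3 at 179 and 228 CPM. Fos was at 105 and 65.9 CPM, but 1 cell held 49.4% of its UMIs in PT I-PpoI, against 1 cell 81.3% in wild type. Egr1 was under the filter, at 42.4 and 8.23 CPM, with 54.8% from 1 cell. After free RNA was subtracted the median was 0.91. After thinning, Jun was read in 24.2% (18.1 to 31.1) and 9.20% (4.05 to 17.3) of Cldn16-type cells. In barcodes with 2 or more Ptprc UMIs it was read in 66.9% and 52.8%. Whether that was free RNA or their own was not tested, so those barcodes give no background for Jun. The shares of Cldn16-type cells are not read as a difference by themselves. For the same 7 genes the median in Cldn10-type cells was 0.45.

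Of the 11 tubular injury genes past the filter 10 had a higher and 1 a lower level, with a median of 0.33 and Cryab alone past 2-fold. The median was 0.15 after free RNA subtraction, and 0.10 for the same genes in Cldn10-type cells. Sox4, a factor raised in injured tubules, was at 124 and 63.1 CPM (0.96, 0.53 to 1.45) and the keratin Krt8 at 62.5 and 38.4 CPM. Havcr1, the kidney injury molecule, had 0 UMIs in both libraries, and Lcn2 was under the filter at 17.4 and 1.37 CPM. Of 30 targets of p53, the factor that answers DNA breaks, 4 passed the filter with a median of 0.09. Cdkn1a, the cell cycle inhibitor, was at 10.2 and 9.60 CPM, and Mdm2, which degrades p53, at 40.3 and 35.7 CPM. No gene of the 22 in double-strand break repair passed the filter.

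Most energy lists had medians near 0. The 41 nuclear genes of oxidative phosphorylation had a median of -0.02 and the 13 mitochondrially encoded genes -0.01, with mt-Atp8 lowest at -0.74. Glycolysis genes had a median of -0.02 over 15 genes. Of 17 fatty acid oxidation genes 16 had a lower and 1 a higher level, where 45.6% of all genes past the filter were lower, with a median of -0.18, and no 2-fold change. The 1 higher gene was Acaa1a, a peroxisomal thiolase, at 0.48. The metal-binding gene Mt2 was at 323 and 167 CPM. Scaling by trimmed means of ratios moved every ratio between libraries by -0.09 and turned the sign of the salt transport median, which became -0.01.

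**Figure D5:**
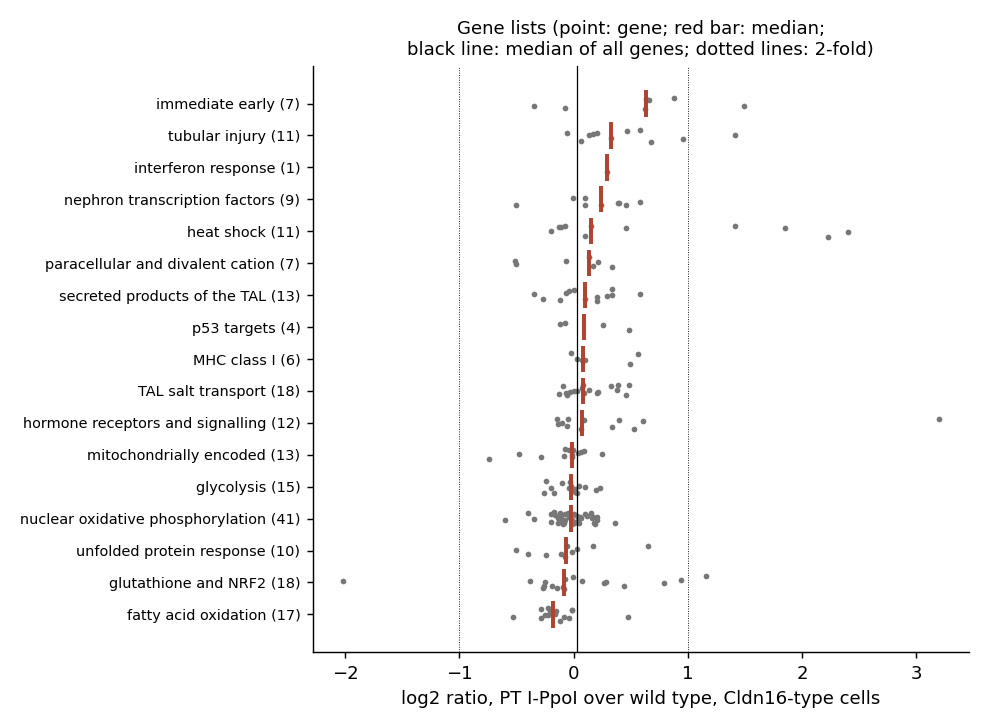
Log2 ratio of PT I-PpoI over wild type in Cldn16-type cells for the genes of each list past the filter, 1 point per gene, with the list's median in red and its number of genes in brackets. Immediate early genes have the highest median, fatty acid oxidation genes the lowest, and 4 heat shock genes lie beyond 2-fold.

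Macula densa cells, the salt sensors at the end of the limb, were looked for by their known genes. Nos1, their nitric oxide synthase, was read in 4 of 187 Cldn16-type cells and in 0 of 98. After thinning it was read in 3 of 182 and 0 of 87, so that at 3 counts up to 3.45% could hold a Nos1 UMI at this depth, a bound on detection and not on expression. None of 12 measured macula densa genes passed the level filter. Pappa2 had 48 and 0 UMIs, 89.6% of them in 1 cell.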

How the data were processed

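Single-cell RNA libraries of kidney cortex were analysed, 1 labelled PT I-PpoI and 1 wild type. The deposited matrices hold raw UMI counts per gene and barcode, written by Cell Ranger 4 per the file headers, while Cell Ranger 3.1, Seurat 3 and mm10 are named per the submitters' processing notes. Barcodes were filtered and gated as described, with no further doublet removal. Scrublet in scanpy 1.11.5 marked 58 of 5076 and 312 of 10412 kept barcodes, of which 0 and 3 were Cldn16-type. UMI counts were summed per class with Python 3.11.15, numpy 2.4.6 and pandas 2.3.3. Log2 ratios used a prior count of 0.5 and exact conditional binomial 95% intervals, and shares used exact Clopper-Pearson intervals (scipy 1.17.1). TMM factors came from edgeR 4.0.16 in R 4.3.3, without any edgeR test. A gene needed 50 CPM in the higher group and 30 UMIs over both, and was called at 2-fold. Free RNA was profiled from barcodes of up to 100 UMIs. The code was tested on simulated data. Named were the 12 genes furthest each way that kept their sign as a mean over cells, after thinning to 2000 UMIs and after free RNA subtraction. For Slc34a1, Miox, Gatm and Spink1 the subtracted ratio was -2.20 each. The prior count leaves that value when both libraries are at 0, so for these genes subtraction could not test the sign. Genes of the rule, mitochondrially encoded, ribosomal, haemoglobin, immunoglobulin, Y-linked and unnamed genes and Xist were left out. Other X-linked genes were kept, and the named genes L1cam and Egfl6 lie on chromosome X. Further list members were named by role or as the furthest from 0, and Hspa8, Hsp90aa1, Ier3, Mdm2, Tagln and Mt2 after their values were seen. Members and lists were chosen with earlier results of these data known. A 3′ count carries no length scaling, so levels of different genes are not compared. Gene positions come from GENCODE M21, which held 31011 of 31053 gene IDs. A few genes are not reported here.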

Additional observations from a re-analysis of the deposited data

How the results depend on the processing

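No paired analysis was possible because each genotype had 1 library. Over the alternatives, 49 values stayed within the 95% interval of a share or within 1.5 times a count, and 31 moved further. Genes 2-fold higher in Cldn16-type cells of both libraries went from 17 to 38 with 2 or more Cldn16 and 0 Cldn10 UMIs, 46 at a level of 10 CPM and 327 without a level filter, and lower genes from 18 to 28, 70 and 279. Genes 2-fold higher in PT I-PpoI went from 27 to 93 at a mitochondrial limit of 30%, 49 without cells holding an Slc12a3, Lrp2 or Slc34a1 UMI, 69 with thinned cells, 43 as a mean over cells, 394 at 10 CPM and 1336 without a filter. Lower genes went from 26 to 58 at the 30% limit, 42 without such cells, 13 without mixed cells (chosen after seeing the data), 64 with a thinned gate, 7 after free RNA subtraction, 210 at 10 CPM and 1569 without a filter. Fewer UMIs or a lower level admit noisier genes by construction; other causes were not tested. The share of majority-claudin barcodes became 12.3% in both libraries under the stricter claudin rule, and 11.8% and 12.01% with a thinned gate. The share of kept barcodes in PT I-PpoI became 2.30% at the 30% limit, 2.46% without those cells, 1.77% under the stricter rule and 2.204% with a thinned gate, and in wild type 0.495%, 0.471%, 0.413% and 0.588%. The ratio of Col4a1 turned to -0.089 with a thinned gate and that of Hspb1 to -0.034 without those cells. Over the 8 settings that neither entered the choice of the named genes nor leave a ratio as it is, 190 of 192 of their values between libraries kept their sign, and 13 were under 2-fold or turned. As these settings reuse the same libraries and some change little, the kept signs are not independent support. Wild-type depth limits low genes.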
